A study of Mus musculus with 2 samples.

Results

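The collagen gene family of the mouse was followed across cell types of the cornea and its outer rim, the limbus, after a chemical burn with sodium hydroxide (NaOH). Members were all genes whose symbol is Col, a number, the letter a and a number, which gave 44 of the 32285 genes in the deposited tables. They were sorted by the shape of the protein into 11 fibrillar collagens, 6 network collagens of type IV, 3 of types VIII and X, 6 of type VI, 1 of type VII, 9 fibril-associated (FACIT) collagens, 4 transmembrane collagens, 2 multiplexins and 2 others. Of the 44 members, 43 had at least 1 UMI (unique molecular identifier, 1 captured transcript) in a named cell class, Col19a1 had none, and 9 more had fewer than 50 UMIs over all named classes.

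The treated library came from NaOH-injured wild-type (wt) cornea and limbus, and the other from uninjured wild-type tissue labelled as control; each condition is 1 library. The labels give no strain, age or sex, no time between injury and collection and no count of mice, and say that corneas were gathered into 1 tube, so animals within a library cannot be told apart. Tissue was the anterior segment without lens, retina, iris, trabecular network and most of the conjunctiva, digested with liberase and then trypsin, and cells were run through a 10x Genomics workflow. The injured library held 9399 cell barcodes and 108863350 UMIs and the uninjured library 7490 barcodes and 85457541 UMIs; filtering left 8327 injured cells (median 10590 UMIs) and 6722 uninjured cells (median 10144.5 UMIs). The libraries shared 15 barcode sequences, of which 13 were among the analysed cells of both. With 1 library per condition no difference could be tested: "higher" and "lower" mean a ratio of at least 2, a rule of size, and the 95% intervals (exact Poisson for levels, exact conditional binomial for ratios, exact binomial by Clopper and Pearson for shares) reflect the counting of UMIs or cells alone, not the spread between mice.

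Collagens are trimers of alpha chains, each chain encoded by its own Col gene. Type I fibrils with some type V make up the bulk of the corneal stroma and are built by its resident fibroblasts, the keratocytes; type III is a fibrillar collagen of pliable tissues and of healing wounds. Type IV chains form the sheet of basement membranes, type VII the fibrils that anchor the epithelium to the stroma, and type XVII a transmembrane collagen of the hemidesmosome, by which basal epithelial cells hold on to that sheet. Type VI forms beaded filaments around cells, FACIT collagens such as XII and XIV sit on the surface of fibrils, and type VIII builds the lattice of Descemet's membrane.

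The type IV genes lie in head-to-head pairs, so that each pair is read in opposite directions from a shared stretch of DNA, and their start regions are shown because the chains of a pair are compared below. In the GENCODE M21 annotation (GRCm38) Col4a1 (chr8:11198423-11312826, minus strand) and Col4a2 (chr8:11312805-11449287, plus strand) overlap by 22 bases at their starts. Col4a4 (chr1:82448423-82586849, minus) and Col4a3 (chr1:82586921-82722059, plus) have 71 bases between their starts, and Col4a6 (chrX:141165403-141474076, minus) and Col4a5 (chrX:141475385-141689234, plus) have 1308. The windows below are RefSeq promoter sequences on GRCm38.p6, 250 bases before to 50 after the gene's start, each 5′ to 3′ on the gene's own strand; 35 of the 44 members have a window in that table. The Col4a1 window (chr8:11312777-11313076, minus) holds the starts of both Col4a1 and Col4a2, and the Col4a4 window (chr1:82586800-82587099, minus) the starts of both Col4a4 and Col4a3. The Col4a6 window is chrX:141474027-141474326 (minus) and the Col4a5 window chrX:141475169-141475468 (plus). The fibrillar gene with the largest ratio in stroma, Col3a1, is added (chr1:45311288-45311587, plus). Capitals mark exact matches, on either strand, to the TATA box (TATAAA), the CCAAT box (CCAAT), the GC box (GGGCGG) or the AP-1 motif (TGANTCA), so a match to the opposite strand appears as its reverse complement.
Col4a1: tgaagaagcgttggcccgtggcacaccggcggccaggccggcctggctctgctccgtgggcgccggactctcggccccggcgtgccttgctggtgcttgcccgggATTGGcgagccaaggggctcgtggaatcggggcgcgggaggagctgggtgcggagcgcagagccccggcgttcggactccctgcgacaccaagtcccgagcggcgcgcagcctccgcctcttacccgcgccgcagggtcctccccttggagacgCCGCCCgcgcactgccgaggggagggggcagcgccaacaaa
Col4a4: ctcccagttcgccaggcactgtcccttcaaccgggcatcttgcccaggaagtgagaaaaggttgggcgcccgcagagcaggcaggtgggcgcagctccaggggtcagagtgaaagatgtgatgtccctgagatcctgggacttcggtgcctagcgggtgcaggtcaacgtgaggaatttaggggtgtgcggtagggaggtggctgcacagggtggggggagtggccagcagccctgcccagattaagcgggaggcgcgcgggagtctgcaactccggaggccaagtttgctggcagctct
Col4a6: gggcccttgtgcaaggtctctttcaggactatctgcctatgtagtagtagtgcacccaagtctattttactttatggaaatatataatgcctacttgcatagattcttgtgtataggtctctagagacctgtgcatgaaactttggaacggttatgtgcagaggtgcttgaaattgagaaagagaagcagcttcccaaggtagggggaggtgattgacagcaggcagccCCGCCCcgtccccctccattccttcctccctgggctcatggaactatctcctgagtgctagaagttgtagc
Col4a5: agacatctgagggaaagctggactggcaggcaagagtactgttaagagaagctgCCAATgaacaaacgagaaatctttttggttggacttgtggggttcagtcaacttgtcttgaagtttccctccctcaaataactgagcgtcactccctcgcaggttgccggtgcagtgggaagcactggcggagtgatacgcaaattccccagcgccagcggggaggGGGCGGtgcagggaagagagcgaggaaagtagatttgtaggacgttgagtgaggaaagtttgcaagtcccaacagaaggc
Col3a1: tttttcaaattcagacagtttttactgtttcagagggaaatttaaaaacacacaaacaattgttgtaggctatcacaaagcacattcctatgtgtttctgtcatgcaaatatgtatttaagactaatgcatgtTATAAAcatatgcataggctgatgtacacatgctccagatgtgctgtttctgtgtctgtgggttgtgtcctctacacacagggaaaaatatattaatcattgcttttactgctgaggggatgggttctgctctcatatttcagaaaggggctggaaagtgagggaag
The Col4a1 window is 74.0% G and C, whereas the Col3a1 window is 37.7% G and C. Positions are counted from the annotated start of the gene. The Col4a1 window has 1 CCAAT box (at -145) and 1 GC box (at 10), both on the opposite strand. The Col3a1 window has 1 match to the TATA box, at -117. Whether any of the matches acts in its gene was not tested. The Col4a6 window holds 1 GC box and the Col4a5 window 1 CCAAT box and 1 GC box. The Col4a4 window holds none of the 4 motifs, which says only that these letters are not in it. Over all 32851 windows of the table, 13.6% hold the TATA box, 37.4% the CCAAT box, 35.7% the GC box and 7.81% the AP-1 motif; among the 38 collagen windows the shares are 13.2%, 34.2%, 60.5% and 2.63%.

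Cell classes were clustered and named without any collagen gene, and the names end in "-like" because they rest on marker genes. Stromal-like cells (800 injured, 458 uninjured) were the main source of collagen transcripts: collagens made up 3.02% of all their UMIs in the injured and 3.08% in the uninjured library. In injured cells the share was 0.969% in mural-like (vessel wall), 0.466% in Schwann-like, 0.421% in vascular endothelial-like and 0.0697% in epithelial-like cells. In uninjured cells it was 0.378% in mural-like, 0.166% in Schwann-like, 0.140% in vascular endothelial-like and 0.0726% in epithelial-like cells. Of the 25 members that reached 50 CPM (counts per 1000000 UMIs of the class and library) in a class and library, 14 were highest in stromal-like, 5 in Schwann-like, 3 in vascular endothelial-like, 2 in mural-like cells and 1 in epithelial-like cells.

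**Figure D1:**
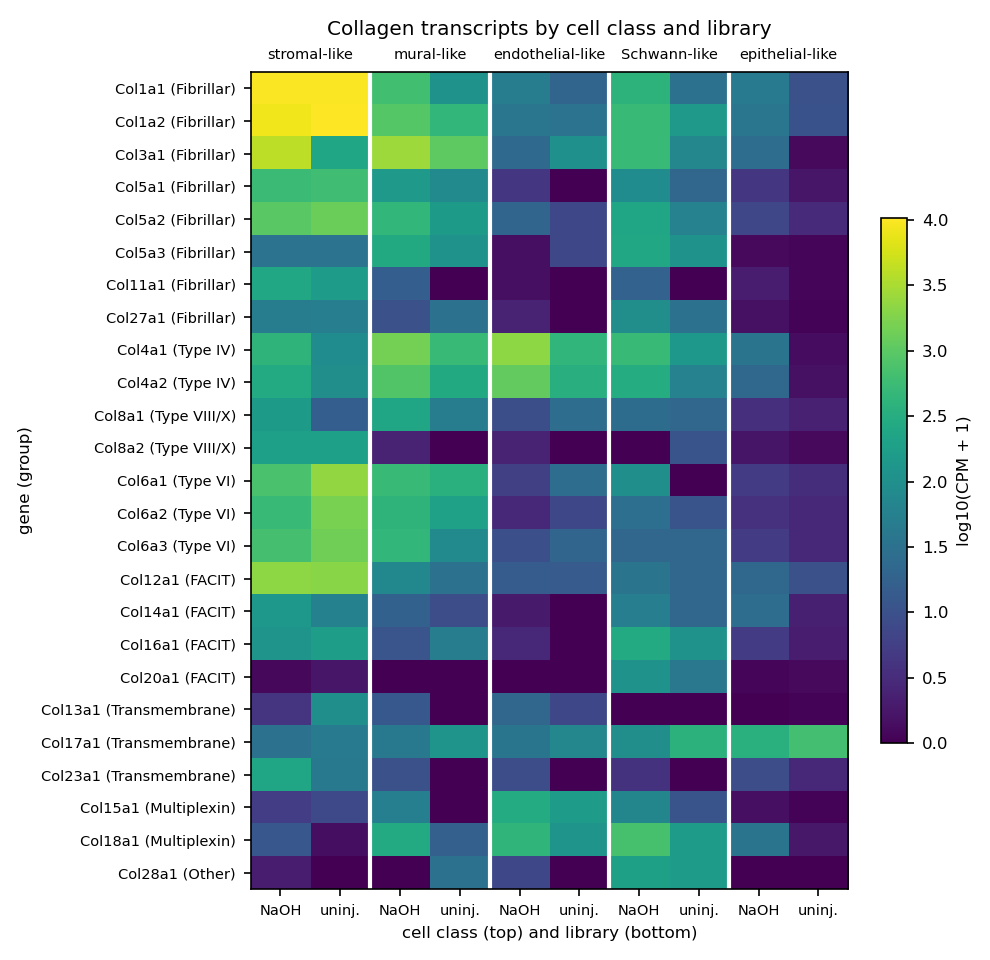
Levels of the 25 members that reached 50 CPM, as log10(CPM + 1), by cell class and library; for each class the NaOH-injured library is left of the uninjured library and rows follow the structural groups. Col1a1 and Col1a2 are brightest in stromal-like cells of both libraries, Col4a1 in endothelial-like and mural-like cells, Col17a1 in epithelial-like cells and Col18a1 in injured Schwann-like cells.

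Over the whole stromal-like class the total was level while the make-up differed. Within cluster 1, described below, the total of injured cells stood above that of uninjured cells, by less than 2-fold. Summed over the 44 members the level was 30182 CPM (95% interval 30075 to 30290) in injured and 30756 CPM (30542 to 30971) in uninjured stromal-like cells. Fibrillar collagens took 81.2% of the collagen UMIs in the injured and 73.3% in the uninjured library, type VI 6.35% against 17.4%, FACIT collagens 8.02% against 7.28%, type IV 2.30% against 0.634%, types VIII and X 1.11% against 0.652% and transmembrane collagens 0.892% against 0.597%. The share of Col3a1 alone was 13.9% (13.7 to 14.0) in the injured and 0.734% (0.675 to 0.796) in the uninjured library. Of the 27 members with at least 50 UMIs in the class, 7 were at least 2-fold higher, against 10.1% of the 10178 genes measured there, 4 were at least 2-fold lower, against 7.75%, and 16 lay between; the median log2 ratio of the 27 was -0.06, beside 0.02 for all genes measured. The other 17 members fell below that minimum. The stromal-like cells came almost wholly from different clusters, cluster 1 with 798 injured and 40 uninjured cells and cluster 15 with 2 injured and 418 uninjured cells, so within-cluster values follow below. The summed level of 15 epithelial markers in stromal-like cells was 1480 CPM in the injured and 5997 CPM in the uninjured library, with all 15 detected in both. Of these, Krt12 stood at 0.694 and 1041 CPM and Krt5 at 176 and 360 CPM, while Krt14 went the other way, at 373 and 162 CPM. The part of these markers in the stromal ratios was not tested.

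The chains of type I, the main fibril of the stroma, lay within 2-fold. Col1a1 stood at 9807 CPM (9746 to 9868) in injured and 9744 CPM (9624 to 9866) in uninjured stromal-like cells. Col1a2, the second chain of the same trimer, stood at 8649 CPM in injured and 10409 CPM in uninjured cells, 0.831 times the uninjured level (0.820 to 0.842). The number of Col1a1 UMIs for each Col1a2 UMI was accordingly 1.13 (1.12 to 1.14) in injured and 0.936 (0.920 to 0.952) in uninjured cells. Col3a1, the single chain of type III, stood at 4181 CPM (4141 to 4221) in injured and 226 CPM (208 to 245) in uninjured cells, 18.5-fold higher (17.1 to 20.1). After each cell was thinned to 1000 UMIs, 66.2% of injured and 12.0% of uninjured stromal-like cells held a Col3a1 UMI (unthinned 88.1% and 23.1%). Neutrophil-like cells, which should lack the gene, gave 9.77% of 256 injured cells at that depth; before thinning the share was 8.93%, at a median of 853 UMIs per cell against 12001.5 in injured stromal-like cells. Uninjured stromal-like cells were shallower than injured ones, with a median of 5725 UMIs. There were only 2 uninjured neutrophil-like cells, and 0.00% of 5730 thinned uninjured epithelial-like cells held a Col3a1 UMI.

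Other fibrillar chains stayed within 2-fold. Col5a1 and Col5a2, whose trimers set the diameter of type I fibrils, stood at 543 and 980 CPM in injured cells, against 599.7 and 1309 CPM in uninjured cells. Col11a1, a fibril-nucleating chain close to type V, stood at 247 CPM in injured and 159 CPM in uninjured cells, 1.55 times as high (1.40 to 1.73). Col27a1, a fibrillar chain best known from cartilage, stood at 49.4 and 51.6 CPM. Only Col3a1, of the 9 fibrillar members measured in stroma, passed the 2-fold rule.

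Over the whole stromal-like class type VI stood at lower levels in injured cells. Within cluster 1 and subcluster 4, described below, Col6a1, Col6a2 and Col6a3 were not below the uninjured level. Col6a1 stood at 719 CPM (702 to 735) in injured and 2332 CPM (2274 to 2392) in uninjured cells, 3.24-fold lower (3.14 to 3.36). Col6a2 stood at 504 CPM in injured and 1635 CPM in uninjured cells, also 3.24-fold lower (3.11 to 3.38). These chains, which join Col6a3 in the trimer, are encoded near each other (Col6a1 chr10:76708792-76726168 and Col6a2 chr10:76595762-76623630, both minus strand), and the number of Col6a1 UMIs per Col6a2 UMI was 1.43 in both libraries. Col6a3, encoded on chr1:90765923-90843971, stood at 689 CPM in injured and 1377 CPM in uninjured cells, a ratio that lies on the 2-fold limit (interval 1.92 to 2.08-fold lower) and falls short of it under 6 of the other settings and turns higher within cluster 1 and subcluster 4. The number of Col6a3 UMIs per Col6a1 UMI was 0.958 (0.927 to 0.990) in injured and 0.591 (0.566 to 0.616) in uninjured cells.

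The fibril-associated collagens kept their main member and differed in a minor one. Col12a1, the FACIT collagen with the most UMIs here, stood at 2149 CPM in injured and 1981 CPM in uninjured stromal-like cells. Col14a1, which coats fibrils and limits their growth, stood at 137 CPM (130 to 144) in injured and 56.6 CPM (47.8 to 66.6) in uninjured cells, 2.42-fold higher (2.04 to 2.89). Col16a1, which links fibrils to other matrix, stood at 121 CPM in injured and 173 CPM in uninjured cells, and Col9a1, a chain of the cartilage FACIT type IX, at 13.9 and 25.6 CPM; both lay within 2-fold.

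Of 3 type IV chains measured in stroma 2 were higher, and of 2 type VIII chains 1 was. Col4a5, an X-linked type IV chain, stood at 8.72 CPM in injured and 9.30 CPM in uninjured cells. Col4a1 stood at 402 CPM (390 to 415) in injured and 87.6 CPM (76.6 to 99.8) in uninjured stromal-like cells, 4.59-fold higher (4.01 to 5.27). Its partner Col4a2, the other chain of the common type IV trimer, stood at 280 CPM in injured and 96.1 CPM in uninjured cells, 2.92-fold higher (2.56 to 3.33). In stroma Col4a1 reached only 18.8% of its highest level in any class, which is in endothelial-like cells. Col8a1 stood at 151 CPM (144 to 159) in injured and 15.1 CPM (10.8 to 20.7) in uninjured cells, whereas Col8a2, the other chain of type VIII, stood at 183 and 185 CPM. The log2 ratio of Col8a1 was 3.32, or 2.63 with every cell weighted alike. The number of Col8a1 UMIs per Col8a2 UMI was therefore 0.828 (0.774 to 0.887) in injured and 0.0816 (0.0573 to 0.113) in uninjured cells.

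Of 3 transmembrane collagens measured in stroma 1 was lower, 1 was higher and 1 lay within 2-fold. The last was Col17a1, at 32.2 CPM in injured and 42.6 CPM in uninjured cells. Col13a1, which sits at cell contacts, stood at 3.17 CPM (2.17 to 4.48; 32 UMIs) in injured and 99.2 CPM (87.5 to 112; 256 UMIs) in uninjured stromal-like cells, 31.3-fold lower (21.6 to 46.7). Col23a1, of the same subfamily, stood at 234 CPM (224 to 243) in injured and 41.1 CPM (33.6 to 49.7) in uninjured cells, 5.68-fold higher (4.68 to 6.97). After thinning, 0.377% of injured and 10.4% of uninjured stromal-like cells held a Col13a1 UMI, against 0.00% of 256 neutrophil-like cells; the unthinned shares were 3.75% and 38.6%. For Col23a1 the thinned shares were 19.3% of injured and 4.67% of uninjured stromal-like cells, against 0.391% of neutrophil-like cells; the unthinned shares were 75.6% and 19.4%. Outside the stroma Col13a1 was highest in endothelial-like cells, at 20.4 CPM (42 UMIs) in injured and 6.53 CPM (1 UMI) in uninjured cells. The remaining member past the 2-fold rule was Col18a1, with 116 UMIs in injured and 1 UMI in uninjured stromal-like cells, at 1.61% of its level in Schwann-like cells.

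**Figure D2:**
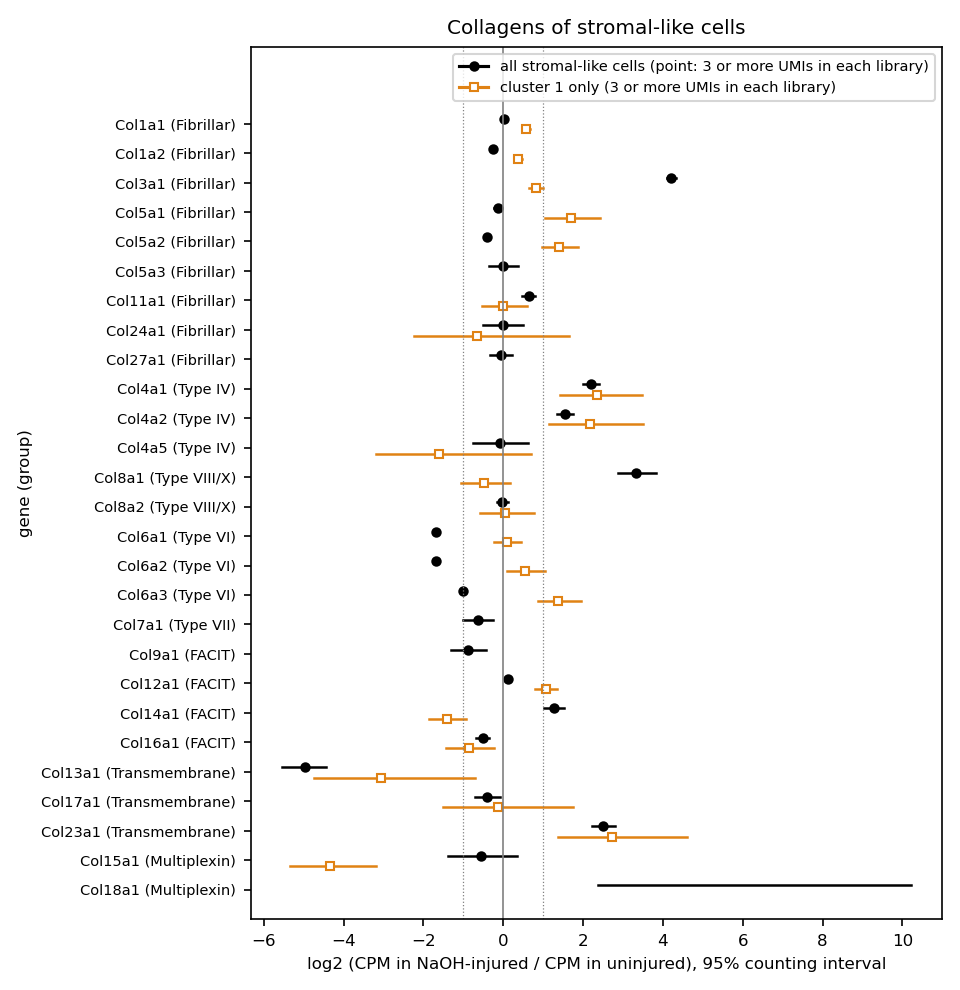
Log2 ratio of the CPM in NaOH-injured to that in uninjured cells for the 27 members measured in stromal-like cells, with 95% counting intervals; black circles use the whole class and orange squares only cluster 1 (798 injured and 40 uninjured cells), and no point is drawn where a library had fewer than 3 UMIs. Dotted lines mark 2-fold. Col3a1, Col5a1, Col5a2, Col8a1, Col12a1, Col14a1 and the type VI chains lie on different sides of a 2-fold line in the whole class and in cluster 1. So do Col4a5 and Col15a1. Col4a1, Col4a2 and Col23a1 stay at the right and Col13a1 at the left.

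The differences were not the same within cluster 1, which holds cells of both libraries, though not the same mix of stromal cells. Of the subclusters described below, 0, 1 and 2 held injured cells only, and 3 held 312 injured cells and 1 uninjured cell. Subcluster 4 held 74 injured and 24 uninjured cells, and subcluster 5 held 16 and 5. The part of this mix in the cluster 1 ratios was not tested. The collagen total there was 30181 CPM in injured and 20260 CPM in uninjured cells (log2 ratio 0.57). Col1a1 stood at 9807 CPM in injured and 6603 CPM in uninjured cells, 1.49 times as high (1.38 to 1.598), and Col1a2 at 8649 and 6683 CPM, 1.29 times as high (1.205 to 1.39) and so in the other direction than over the class. Col3a1 stood at 4178 CPM in injured and 2381 CPM in uninjured cells, 1.75 times as high (1.56 to 1.99). Col6a1 stood at 719 CPM in injured and 673 CPM in uninjured cells, Col6a2 at 504 and 345 CPM and Col6a3 at 688 and 266 CPM, so that the 3 chains were not lower there. Col14a1 stood at 137 CPM in injured and 363 CPM in uninjured cells, 2.65-fold lower (1.895 to 3.62), and Col8a1 at 151 and 212 CPM. Directions held for the other members past 2-fold with at least 3 UMIs in each library. Col4a1 stood at 403 CPM in injured and 79.7 CPM in uninjured cells, Col4a2 at 281 and 62.0 CPM, Col23a1 at 234 and 35.4 CPM and Col13a1 at 3.18 and 26.6 CPM. Col5a1 was 3.23-fold higher (2.06 to 5.36), Col5a2 2.64-fold higher (1.95 to 3.66) and Col12a1 2.09-fold higher (1.74 to 2.53) within cluster 1. The uninjured cells of the cluster are few and hold only 4 UMIs of Col23a1 and 3 of Col13a1.

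Stromal-like cells were clustered again, also without collagens, into 8 subclusters, 0 to 7. Subcluster 6 (286 uninjured cells), with the keratocyte marker Kera at 4729 CPM, had 2651 CPM of Col6a1, 118 CPM of Col13a1 and 45.3 CPM of Col3a1. Subcluster 7 (142 uninjured cells), led by Coch, had 1700 CPM of Col6a1, 56.4 CPM of Col13a1 and 569 CPM of Col3a1, so uninjured stroma was itself uneven in type III. Among injured cells, subcluster 3 (312 injured cells and 1 uninjured, led by Tnfsf11, Ctsc and Cxcl14) had 8285 CPM of Col3a1 and 652 CPM of Col4a1. Subcluster 0 (237 injured cells, led by Saa2 and Chil1) had 1414 CPM of Col3a1, 337 CPM of Col4a1 and 314 CPM of Col23a1. Subcluster 1 (134 injured cells) was led by Stmn2 and Tagln, held Acta2, the actin of smooth muscle and myofibroblasts, at 742 CPM, and had 312 CPM of Col8a1 and 68.1 CPM of Col23a1. Levels of Col1a1 varied less, between 6932 CPM in injured subcluster 2 and 10735 CPM in injured subcluster 0 among subclusters with at least 10 cells of the library.

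The smallest subcluster carried the most type III. Subcluster 5 (16 injured and 5 uninjured cells), led by Clec3b, Tppp3 and Pi16, had in its injured cells 18234 CPM of Col3a1, 954 CPM of Col14a1, 210 CPM of Col6a6 and 47.7 CPM of Col12a1, the last against 1561 to 2445 CPM in the other injured subclusters. Subcluster 4 (74 injured and 24 uninjured cells), led by Chad, Spink8 and Camp and with Comp among its 10 leading genes, allowed a comparison of both libraries. In it Col3a1 stood at 1661 CPM in injured and 652 CPM in uninjured cells, 2.55-fold higher (1.91 to 3.48), Col6a1 at 628 and 359 CPM, Col8a1 at 286 and 253 CPM and Col14a1 at 128 and 253 CPM. Subcluster 2 (27 injured cells) held Krt14, an epithelial keratin, at 2943 CPM and Col17a1 at 239.9 CPM, against 17.2 to 24.96 CPM of Col17a1 in the other injured subclusters.

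**Figure D3:**
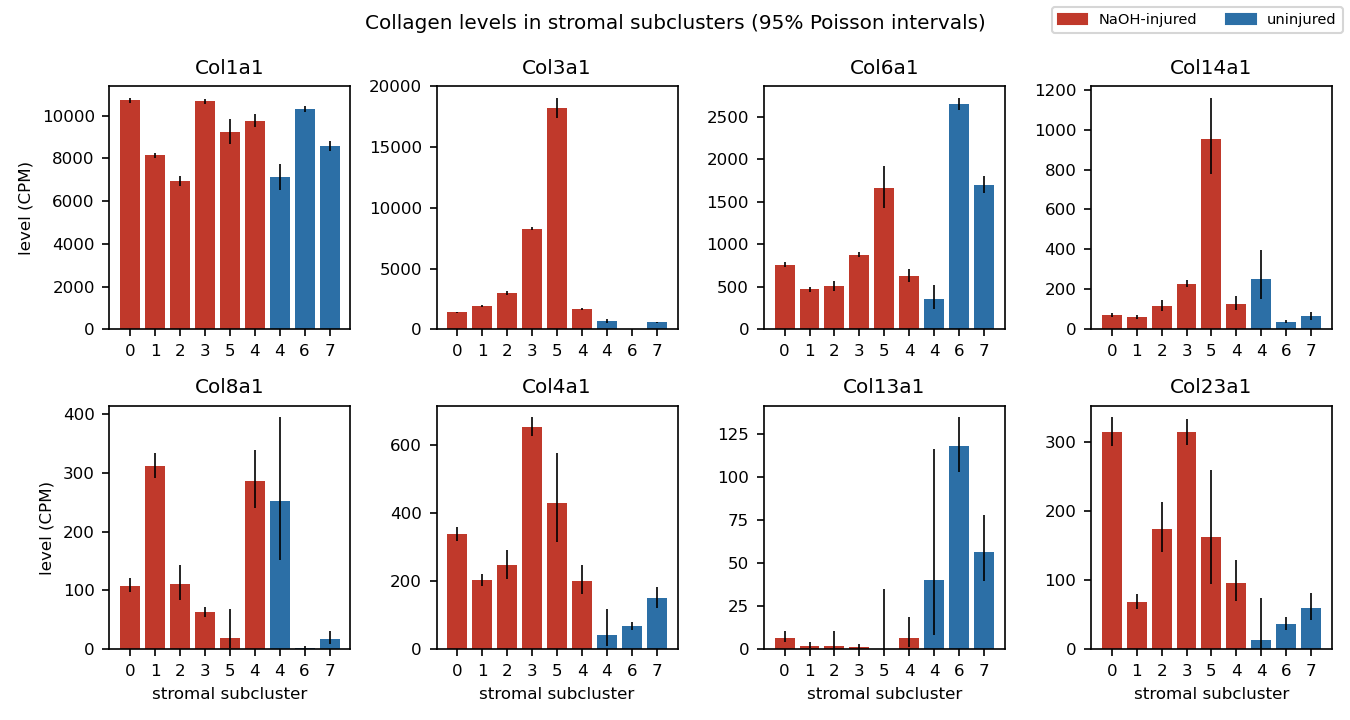
Levels in CPM with 95% Poisson intervals of 8 members in stromal subclusters with at least 10 cells of the library; red bars are NaOH-injured and blue bars uninjured cells, and subcluster 4 appears in both. Col1a1 is similar across bars, Col3a1 peaks in injured subclusters 5 and 3, Col6a1 in uninjured subcluster 6, and Col8a1 in injured subcluster 1 and in both bars of subcluster 4.

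Genes that modify, fold, cut and link collagen were followed in the same stromal-like cells, from lists chosen by function; over all genes measured there, 10.1% were at least 2-fold higher and 7.75% at least 2-fold lower. Of 15 prolyl and lysyl modification genes measured, 3 were at least 2-fold higher and 2 at least 2-fold lower (median log2 ratio 0.53, beside 0.02 for all genes). Those lower were the lysyl hydroxylase Plod1, at 81.6 CPM in injured and 387 CPM in uninjured cells, 4.74-fold lower, and the collagen galactosyltransferase Colgalt2, at 4.46 and 70.2 CPM, 15.7-fold lower. The prolyl 3-hydroxylase P3h1 stood at 89.8 CPM in injured and 44.6 CPM in uninjured cells, 2.01 times as high (1.66 to 2.47). P3h1 was not the highest of the list, whose log2 ratios ran from -3.98 to 4.65. Of 13 folding and export genes 1 was higher and none was lower (median 0.23). That gene was Fkbp10, a chaperone for procollagen, at 175 CPM in injured and 70.9 CPM in uninjured cells, whereas Serpinh1, the collagen chaperone HSP47, stood at 1072 and 826 CPM. The Colgalt2 and Plod1 genes had 0 and 6 UMIs in the uninjured cells of cluster 1. Within that cluster Plod1 stood at 81.7 CPM in injured and 53.1 CPM in uninjured cells, so its direction did not hold there, and Fkbp10 at 175 and 88.5 CPM.

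Against the same shares of 10.1% higher and 7.75% lower, of 4 propeptide cleavage genes measured 1 was lower and none higher (median -0.06), namely Pcolce2, an enhancer of procollagen cleavage, at 35.8 CPM in injured and 99.2 CPM in uninjured cells. Of 5 crosslinking genes 2 were higher and none lower (median 0.80), namely Lox and Loxl3, with Loxl3 at 42.4 and 7.75 CPM. Lox, the lysyl oxidase that crosslinks fibrils, stood at 1382 CPM in injured and 178 CPM in uninjured cells, 7.76-fold higher (7.07 to 8.54), and was 14.2-fold higher (7.94 to 28.5) within cluster 1. Loxl1, a lysyl oxidase that also acts on elastin, lay within 2-fold, at 288 CPM in injured and 214 CPM in uninjured cells. Of 18 fibril assembly partners 6 were higher and 3 lower (median -0.04), among them the keratocyte proteoglycan Kera, at 138 and 3578 CPM (138 and 469 CPM in cluster 1), and Aspn, a small leucine-rich proteoglycan, at 247 CPM in injured and 42.3 CPM in uninjured cells. In cluster 1 Aspn went the other way, at 247 and 628 CPM. Of 6 collagen receptors 1 was higher and none lower (median 0.29). Of 12 degradation genes 4 were higher and none lower (median 0.34), with the largest ratios for the metalloproteinase inhibitor Timp1, at 2144 CPM in injured and 10.1 CPM in uninjured cells, and the stromelysin Mmp3, at 17489.7 and 755 CPM. Both were also higher in cluster 1, at 2146 and 115 CPM for Timp1 and 17496 and 1912 CPM for Mmp3. Among the 4 was also the membrane-bound collagenase Mmp14 at 228 CPM in injured and 52.7 CPM in uninjured cells.

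In the epithelium most measured members were higher in the injured library, at low levels. Of the 25 members with at least 50 UMIs in epithelial-like cells (5753 injured, 6089 uninjured), 19 were at least 2-fold higher, against 12.1% of the 13194 genes measured, and 0 were at least 2-fold lower, against 10.7%; the median log2 ratio was 2.05, beside 0.01 for all genes. The total was nearly level (log2 ratio -0.06), at 696 CPM (691 to 702) in injured and 726 CPM (720.0 to 732) in uninjured cells. Counting only members that reach 25% of their highest class level, 3 were higher instead of 19, and the log2 ratio of the total was -0.72. Col17a1 alone took 50.1% of the collagen UMIs in injured and 90.5% in uninjured epithelial-like cells, fibrillar collagens 17.2% against 3.04%, and type IV 14.1% against 1.77%. All 12 stromal markers were detected in epithelial-like cells of both libraries, with none at 0. Their summed level was 234 CPM in injured and 84.7 CPM in uninjured cells. Of those sums Fbln1 made up 127 CPM in injured and 26.7 CPM in uninjured cells. Dcn stood at 62.2 and 40.0 CPM, while Kera went the other way, at 0.638 and 2.72 CPM.

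Each gene's epithelial level was therefore set against its stromal level in the same library. For 7 stromal markers (Dcn, Lum, Kera, Ogn, Serpinf1, Mfap5 and Mfap4), picked from the 12 after the values were seen, it came to 0.347 to 0.613% in injured and 0.0552 to 0.303% in uninjured cells; Pdgfra came to 0.432% and 0.599%, and Fbln2 to 0.782% and 0.177%. The other 3 markers of the list lay far higher, Fbln1 at 82.2% in injured and 30.4% in uninjured cells, Clec3b at 16.3% and 7.90% and Pi16 at 2.33% and 1.16%, so the list as a whole spans the range of the collagens. Col1a1 came to 0.465% in injured and 0.0922% in uninjured cells, Col3a1 to 0.622% and 0.120%, and Col6a1 to 0.583% and 0.102%. For these chains the epithelial level stood close to the share of the 7 markers. Above that share in injured cells were Col4a1 at 8.49%, Col4a2 at 7.52%, Col14a1 at 19.0%, Col7a1 at 103%, Col4a5 at 226% and Col18a1 at 292%, and by less Col16a1 at 3.47%, Col23a1 at 3.44% and Col8a1 at 1.70%. In uninjured cells Col4a1 came to 0.432%, Col4a2 to 0.535%, Col14a1 to 2.18%, Col7a1 to 38.8%, Col4a5 to 106%, Col16a1 to 0.587%, Col23a1 to 4.35% and Col8a1 to 8.77%. How much of the epithelial ratios of types I, III, V and VI comes from free RNA was not tested.

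**Figure D4:**
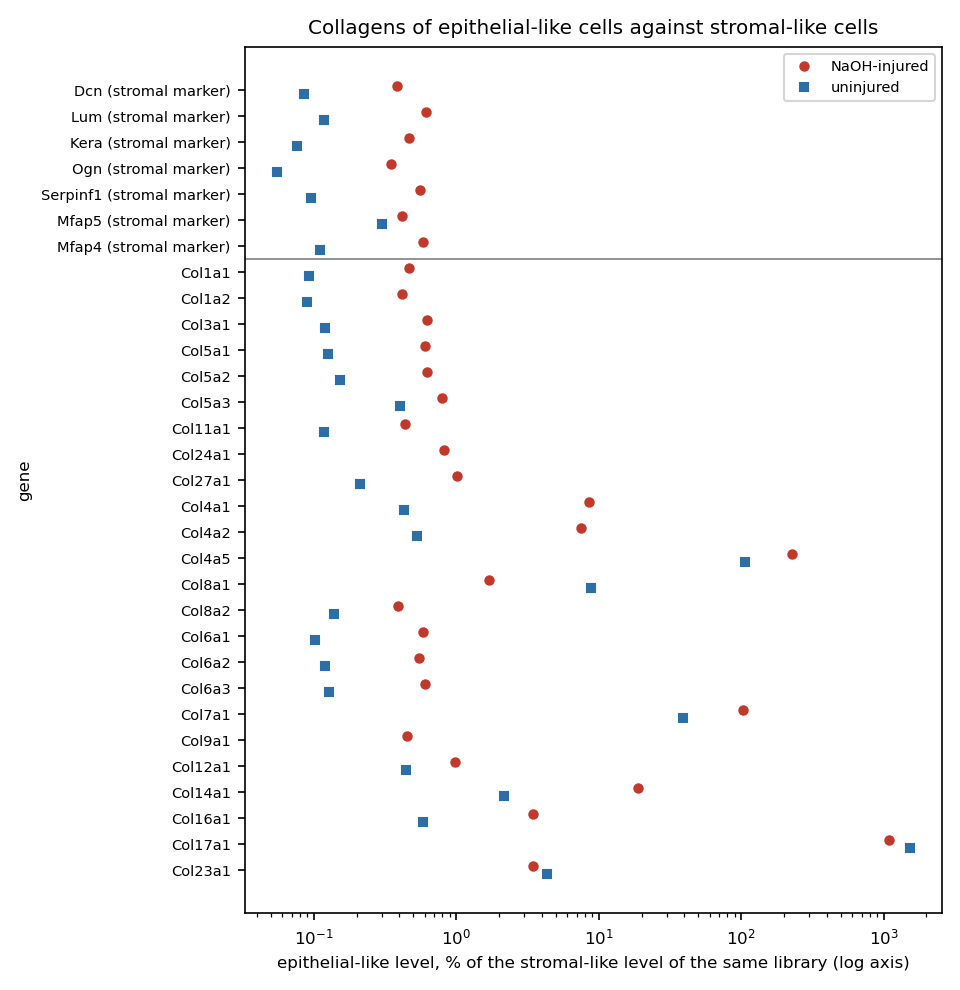
Level in epithelial-like cells as a percent of the level in stromal-like cells of the same library, on a log axis, for 7 of the 12 stromal markers (top) and the members with at least 50 injured and 10 uninjured stromal UMIs; red circles are NaOH-injured and blue squares uninjured, and values from fewer than 3 epithelial UMIs are not drawn. Type I, III and VI chains lie with these markers, while Col4a1, Col4a2, Col4a5, Col7a1, Col14a1 and Col17a1 lie to their right in the injured library.

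The type IV chains, Col18a1, Col14a1 and Col7a1 are described next; all were below the 50 CPM at which members were to be named in a class, and were chosen for description after their values were seen. Col4a1 stood at 34.1 CPM (32.9 to 35.4; 2728 UMIs) in injured and 0.379 CPM (0.252 to 0.548; 28 UMIs) in uninjured epithelial-like cells, 90.1-fold higher (62.2 to 136). Col4a2 stood at 21.1 CPM in injured and 0.514 CPM in uninjured cells, 41.0-fold higher (29.7 to 58.1). Col4a4, a chain of the specialised type IV network of kidney, lung and eye, stood at 6.27 CPM (501 UMIs) in injured and 0.203 CPM (15 UMIs) in uninjured cells, 30.9-fold higher (18.5 to 55.6). Col4a3, its head-to-head neighbour, had 281 UMIs in injured cells and 0 in uninjured cells, at least 86.6-fold higher when 3 UMIs over the class are taken as the floor. The share of epithelial-like cells with a Col4a1 UMI after thinning was 3.21% in injured and 0.0349% in uninjured cells (unthinned 28.8% and 0.443%), against 1.17% of injured neutrophil-like cells.

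The third pair behaved unevenly. Col4a6 stood at 13.7 CPM in injured and 1.88 CPM in uninjured epithelial-like cells, 7.27-fold higher (6.09 to 8.74). Col4a5, which starts 1308 bases away on the other strand, stood at 19.7 CPM in injured and 9.89 CPM in uninjured cells, 1.99 times as high (1.82 to 2.18). The number of Col4a5 UMIs per Col4a6 UMI was 1.44 (1.33 to 1.56) in injured and 5.26 (4.38 to 6.35) in uninjured cells. For Col4a1 per Col4a2 it was 1.62 (1.52 to 1.72) in injured and 0.737 (0.436 to 1.23) in uninjured cells.

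Col18a1, the basement membrane multiplexin whose end is released as endostatin, stood at 33.5 CPM in injured and 0.812 CPM in uninjured epithelial-like cells, 41.3-fold higher (32.0 to 54.3). Col14a1 stood at 26.0 CPM in injured and 1.23 CPM in uninjured cells, 21.1-fold higher (17.1 to 26.3). Col7a1, the anchoring fibril chain, stood at 20.8 CPM in injured and 12.2 CPM in uninjured cells, within 2-fold. Col17a1, the hemidesmosomal collagen (chr19:47646344-47692094, minus strand), stood at 349 CPM (345 to 353) in injured and 657 CPM (651 to 663) in uninjured cells, 1.88-fold lower (1.86 to 1.91) and so within the 2-fold limit (log2 ratio -0.91, or -1.04 with every cell weighted alike). After thinning, 29.5% of injured and 46.1% of uninjured epithelial-like cells held a Col17a1 UMI (unthinned 86.9% and 89.8%), against 4.30% of injured neutrophil-like cells.

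Levels of the type IV chains differed between epithelial clusters, of which only clusters 5 and 10 held at least 50 cells of both libraries. Cluster 0 (831 injured cells, no uninjured), with Krt7, Krt17, Itgb6 and Lama3 among its leading genes, had 86.9 CPM of Col4a1, 52.3 of Col4a2, 19.7 of Col4a3, 32.1 of Col4a4, 59.5 of Col7a1, 91.2 of Col18a1 and 618 of Col17a1. Cluster 11 (721 injured cells) came next, with 46.9 CPM of Col4a1, 4.33 of Col4a3, 7.85 of Col4a4 and 46.2 of Col18a1. In every other epithelial cluster with at least 50 cells of a library Col4a3 stood at 0.312 CPM or less and Col4a4 at 1.4999 CPM or less. Cluster 3, the largest injured cluster with 2811 injured and 10 uninjured cells, had 25.01 CPM of Col4a1 and 412 of Col17a1 in its injured cells. In cluster 9 (621 injured, 25 uninjured), with Krt19, Krt13 and Krt4 among its leading genes, Col17a1 stood at 109 CPM in injured cells. In the uninjured library Col17a1 ranged from 95.4 CPM in cluster 20, led by Psca, to 875 CPM in cluster 17; cluster 18 gave 1496 CPM, but its median was 1211 UMIs per cell with 13.6% mitochondrial UMIs.

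Cluster 10 held 70 injured and 194 uninjured cells. There Col17a1 stood at 361 CPM in injured and 530 CPM in uninjured cells, the uninjured level being 1.47 times the injured level (1.27 to 1.71). Col4a1 stood at 20.2 CPM (12 UMIs) in injured and 4.09 CPM (8 UMIs) in uninjured cells, 4.95-fold higher (1.86 to 14.0). Col4a2, Col4a5, Col4a6, Col7a1 and Col14a1 lay between 0.733 and 1.65 times the uninjured level, with intervals that included 1. Beside them Lum, a stromal marker, stood at 30.4 CPM in injured and 6.14 CPM in uninjured cells of the cluster, and Dcn at 42.2 and 47.6 CPM. In cluster 5 (604 injured, 51 uninjured cells) Col17a1 stood at 153 CPM in injured and 171 CPM in uninjured cells, 0.893 times the uninjured level (0.744 to 1.08). Col4a1 had 70 UMIs (7.93 CPM) in injured and 0 in uninjured cells there, 1.97 times as high with 3 UMIs over the cluster in place of 0. Col4a2, Col4a5, Col4a6, Col7a1 and Col14a1 lay between 0.862 and 1.43 times the uninjured level, on 3 to 13 uninjured UMIs, with intervals that included 1.

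**Figure D5:**
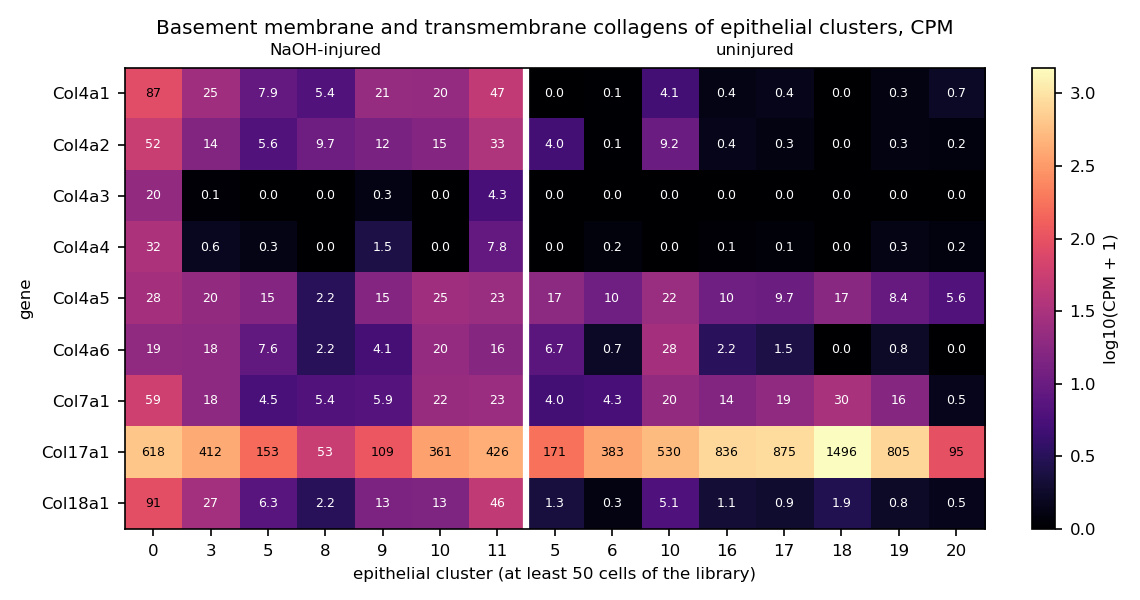
Level in CPM (printed in each field; colour is log10(CPM + 1)) of 9 members in epithelial clusters with at least 50 cells of the library, NaOH-injured clusters left of the white line and uninjured clusters right of it. Col4a3 and Col4a4 stand out in injured clusters 0 and 11, Col18a1 and Col4a1 peak in cluster 0, and Col17a1 is highest in uninjured clusters 16 to 19.

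Vessel cells carried the highest levels of Col4a1 and Col4a2. In vascular endothelial-like cells (212 injured, 42 uninjured) Col4a1 stood at 2136 CPM (2074 to 2200.3) in injured and 444 CPM (345 to 563) in uninjured cells, 4.81-fold higher (3.79 to 6.21). Col4a2 stood at 1108 CPM in injured and 340 CPM in uninjured cells, 3.26-fold higher (2.48 to 4.38), and Col18a1 at 420 and 118 CPM, 3.57-fold higher (2.25 to 6.06). Col15a1, the other multiplexin, stood at 296 CPM in injured and 157 CPM in uninjured cells, within 2-fold. With cells thinned to 1000 UMIs the log2 ratio was 1.07 rather than 1.84 for Col18a1 and 0.09 rather than 0.92 for Col15a1. Type IV made up 77.0% of collagen UMIs in injured and 55.8% in uninjured endothelial-like cells. Of 8 members measured 4 were at least 2-fold higher, against 13.8% of the 5245 genes measured, and 2 at least 2-fold lower, against 9.02%. The fourth higher one was Col1a1, at 47.6 CPM (98 UMIs) in injured and 19.6 CPM (3 UMIs) in uninjured cells, a ratio whose interval, 0.807 to 12.0, includes 1. Of 12 stromal markers 9 were detected in injured cells, summing to 375 CPM, and 5 in uninjured cells, summing to 183 CPM (Ogn, Clec3b and Pi16 at 0 in injured, and Kera, Lum, Pdgfra, Ogn, Fbln1, Clec3b and Mfap4 at 0 in uninjured cells); their part in the ratios was not tested. The lower ones were Col3a1, at 22.8 CPM in injured and 104 CPM in uninjured cells, and Col17a1, at 35.4 and 71.8 CPM (11 uninjured UMIs). For Col17a1 the ratio was 0.493, and its interval, 0.260 to 1.03, includes 1. The summed level of 10 mural markers was 21.8 CPM in injured and 542 CPM in uninjured endothelial-like cells, with 7 detected in each (Myh11, Higd1b and Des at 0 in injured, and Cspg4, Higd1b and Cox4i2 at 0 in uninjured cells); its part in the Col3a1 ratio was not tested. The class also held the lymphatic marker Ccl21a among its leading genes.

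In mural-like cells (88 injured, 58 uninjured), the pericytes and smooth muscle of the vessel wall, most members measured were higher. The number of Col3a1 UMIs per Col1a1 UMI was 4.26 in injured and 9.36 in uninjured mural-like cells, while in stromal-like cells it was 0.426 and 0.0232. Col3a1 stood at 2693 CPM (2570 to 2820) in injured and 1041 CPM (871 to 1236) in uninjured cells, 2.59-fold higher (2.16 to 3.11). Col4a1 stood at 1520.5 CPM in injured and 533 CPM in uninjured cells, Col4a2 at 833 and 270 CPM and Col8a1 at 233 and 47.7 CPM (6 uninjured UMIs). Col6a3 stood at 454 CPM in injured and 79.5 CPM (10 UMIs) in uninjured cells, 5.71-fold higher (3.06 to 12.0), and Col6a2 at 412 and 199 CPM, the opposite direction to stromal-like cells as a whole; without doublet removal the log2 ratio of Col6a2 was 0.99, short of 2-fold, and with thinned cells it was 1.69 for Col6a2, 1.65 for Col6a3 and 1.25 for Col8a1. Col5a3, a minor chain of type V that was highest in this class, stood at 279 CPM in injured and 111 CPM in uninjured cells. Col5a2 stood at 462 CPM in injured and 151 CPM (19 UMIs) in uninjured cells, 3.06-fold higher (1.92 to 5.14). Of 14 members measured 11 were at least 2-fold higher, against 18.1% of the 2321 genes measured, and 0 lower, against 9.74%; one of the 11, Col18a1, had only 2 UMIs in uninjured cells. Of 12 stromal markers 11 were detected in injured and 5 in uninjured mural-like cells, with summed levels of 623 and 191 CPM; Pi16 was at 0 in injured cells, and Kera, Pdgfra, Fbln1, Fbln2, Clec3b, Pi16 and Mfap4 were at 0 in uninjured cells. The part of these in the mural ratios was not tested.

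Schwann-like cells (97 injured, 56 uninjured), the glia of corneal nerves, had the highest Col18a1 of any class, at 715 CPM (629 to 809) in injured and 160 CPM (91.6 to 260.2) in uninjured cells, 4.46-fold higher (2.69 to 7.93). Col28a1, a collagen of peripheral nerve glia, stood at 189 CPM (66 UMIs) in injured and 160 CPM (16 UMIs) in uninjured cells, within 2-fold, and in other classes at no more than 31.8 CPM (4 UMIs, uninjured mural-like cells). Col20a1, a FACIT collagen, was below the minimum, with 39 UMIs (112 CPM) in injured and 4 UMIs (40.1 CPM) in uninjured cells. Col5a3 stood at 243 CPM in injured and 110 CPM (11 UMIs) in uninjured cells, 2.21-fold higher (1.17 to 4.59). Its log2 ratio was 1.14, but 0.78 without doublet removal and 0.71 with thinned cells, both short of 2-fold. Col4a2 stood at 303 CPM in injured and 60.1 CPM (6 UMIs) in uninjured cells, 5.04-fold higher (2.24 to 14.1). Col16a1 stood at 286 CPM in injured and 110 CPM in uninjured cells, 2.60-fold higher (1.39 to 5.37); without doublet removal the Col16a1 log2 ratio was 0.98, short of 2-fold. Of 11 members measured 9 were at least 2-fold higher, against 14.0% of the 1459 genes measured, and 1 lower, against 6.10%. The lower one was the epithelial gene Col17a1, at 97.2 CPM in injured and 381 CPM in uninjured cells, a log2 ratio of -1.97 that was -2.98 under the stricter cell filter and -1.35 with thinned cells. Beside Col18a1, Col16a1, Col5a3 and Col4a2 the higher ones were Col1a1, Col1a2, Col3a1, Col4a1 and Col5a2. Col1a1 had 3 uninjured UMIs, Col5a2 6, Col3a1 7, Col4a1 14 and Col1a2 15. Col1a1, Col1a2, Col3a1, Col5a2 and Col4a1 reached 4.02%, 4.81%, 12.0%, 17.9% and 24.0% of their highest class level. Stromal markers detected were 8 of 12 in injured cells (377 CPM summed) and 7 in uninjured cells (310 CPM). Their part in the ratios was not tested. The summed level of 15 epithelial markers was 3635 CPM in injured Schwann-like cells (15 detected) and 18677 CPM in uninjured ones (14 detected, Krt19 at 0). Of these, Krt12 stood at 14.3 and 6619 CPM and Krt5 at 432 and 1873 CPM, while Krt14 stood at 1444 and 1342 CPM. Krt12 was itself lower in injured than in uninjured epithelial-like cells, at 27.0 and 19697 CPM. The part of these markers in the Col17a1 ratio was not tested. The marker sum was also lower in injured than in uninjured mural-like (2003 and 6312 CPM) and endothelial-like cells (1344 and 5471 CPM). There too Krt12 was lower in injured cells, at 0 and 2496 CPM in mural-like and 1.46 and 2063 CPM in endothelial-like cells. Krt14 went the other way, at 605 and 334 CPM in mural-like and 434 and 379 CPM in endothelial-like cells. Cells of all 3 classes were deeper in the injured library. Median UMIs were 6117 and 2094 in mural-like, 6724.5 and 2981 in endothelial-like and 2584 and 1203 in Schwann-like cells.

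Immune cells held few collagen UMIs. Injured neutrophil-like cells (1019 cells) had 648, a level of 688 CPM (636 to 743), and the 2 uninjured ones had 2, while all 12 stromal markers were detected in the injured and none in the uninjured neutrophil-like cells. In macrophage or monocyte-like cells (342 injured, 14 uninjured) the family summed to 285 CPM in injured and 333 CPM (18 UMIs) in uninjured cells. Of 4 members measured there 0 were at least 2-fold higher, against 6.25% of the 4722 genes measured, and 1 was at least 2-fold lower, against 10.8%. That one was Col17a1, at 43.5 CPM in injured and 259 CPM (14 UMIs) in uninjured cells. The 15 epithelial markers summed to 1814 and 7929 CPM there (15 and 13 detected). Of these, Krt12 stood at 2.62 and 2575 CPM, while Krt14 stood at 524 and 445 CPM. Without doublet removal the log2 ratio of Col17a1 was -1.14 rather than -2.57. Of the members with 1 to 49 UMIs over all named classes, Col6a6 had the most with 44 UMIs, followed by Col6a5 with 33, and Col22a1 had 1; no comparison was made for them.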

How the data were processed

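The deposited matrices hold raw UMI counts per gene and cell barcode, made by the authors; per the file headers the software was Cell Ranger 7.0.1. The submitters' processing notes name the build GRCm38. Chemistry, annotation release and any correction for free RNA: not given in the sources used here. Gene symbols are those of the deposited gene tables, coordinates come from GENCODE M21 and promoter sequences from RefSeq (GRCm38.p6). The members and gene lists were chosen with earlier results of these data known.

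A barcode entered with 300 or more genes, 500 or more UMIs and a mitochondrial share up to 20%, which left 9003 injured and 7150 uninjured cells; 392 and 334 exceeded the mitochondrial limit. Scrublet's own threshold marked 3 and 32 cells, so the top-scoring cells of each library were left out, taking 0.8% for every 1000 barcodes as the doublet rate (676 and 428 cells). Clusters were made with scanpy 1.11.5 on log-transformed counts of 2000 variable genes, none a collagen (30 components, 20 neighbours, Leiden resolution 1), and named by listed markers. Stromal-like cells were clustered again with 20 components at resolution 0.5.

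For each class and library the deposited counts were added up and expressed per 1000000 of that class's UMIs (CPM). Genes with at least 50 UMIs in a class over both libraries were measured; counts under 3 were set to 3 for a ratio, so no fold is printed for 1 or 2 UMIs. A member was described singly where it also reached 50 CPM and 25% of its highest class level; where others are named, as with Col4a1 in stroma and the epithelial chains, they were chosen after their values were seen. Of the genes of collagen handling with at least 50 CPM, the 3 largest ratios in each direction were named (Timp1, Mmp3 and Lox; Kera, Colgalt2 and Plod1), and the others named were chosen after their values were seen. No test was made, since each condition is 1 library. The ratio and its 2-fold rule were tried on simulated Poisson counts of 10178 stromal genes. There 98.0% of the 50 genes altered 4-fold and 0.481% of unaltered genes passed. The simulated counts varied by counting alone, without spread between mice, differing cell mixtures or free RNA. These shares therefore do not give the rate of false calls between the libraries. Alternatives used edgeR 4.0.16 and DESeq2 1.42.0 for scaling only.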

Additional observations from a re-analysis of the deposited data

Results flagged for a closer look

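Type VI chains differed in direction between cell classes under the same contrast of injured over uninjured cells. The log2 ratio of Col6a2 was 1.05 in mural-like and -1.70 in stromal-like cells, and that of Col6a3 was 2.51 in mural-like and -1.0 in stromal-like cells. With 1 library per condition the difference between the classes was not tested. The uninjured mural-like values rest on 25 UMIs of Col6a2 and 10 of Col6a3, and the stromal-like ratios turn positive within cluster 1.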

How the results depend on the processing

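The settings "only cluster 1", "only subcluster 4" and those without subcluster 2, subcluster 5 or cluster 18 were chosen after seeing the data. No paired analysis was possible because each condition is 1 library and the labels give no replicate numbers. Clustering at resolution 2 or with collagens kept every call of the 39 gene ratios described; so did the stricter cell filter, whereas 4 changed without doublet removal, 2 with cells weighted alike, 2 with thinned cells, and 1 with either scaling, where Col6a3 in stroma falls short of 2-fold. Of 18 stromal ratios 9 kept their call within cluster 1 and 11 within subcluster 4. Within cluster 1 the stromal log2 ratio was 1.37 for Col6a3, 0.55 for Col6a2, 0.10 for Col6a1, -1.41 for Col14a1 and -0.49 for Col8a1, and within subcluster 4 it was 1.23 for Col6a3, 0.77 for Col6a2, 0.81 for Col6a1 and -0.98 for Col14a1; the cause was not tested. The total in stroma (log2 -0.03) was -0.0135 without doublet removal, 0.0902 with cells weighted alike, 0.0908 with thinned cells, 0.0502 with TMM, 0.0557 with DESeq2 factors, -0.0426 with members at 25% or more of their highest class level, 0.57 in cluster 1 and -0.0041 without subcluster 2. The total in epithelium (-0.06) was -0.0399 with the stricter filter, 0.0644 without doublet removal, -0.23 with cells weighted alike, -0.19 thinned, -0.0918 with TMM and -0.72 with members at 25% or more. Without a UMI minimum 11 members were lower in stroma (4 with it) and 1 in epithelium (0 with it), as fewer UMIs were asked for; 1 was lower in epithelium with cells weighted alike, and with members at 25% or more only 3 were higher there, not 19. TMM shifts all log2 ratios by 0.11 in mural-like and 0.15 in macrophage or monocyte-like cells. Depth limits the uninjured macrophage or monocyte, Schwann, mural and endothelial values, which rest on 53982, 99857, 125792 and 153165 UMIs.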
